A study of Mus musculus with 12 samples.

Results

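Nuclear receptors are transcription factors that are switched by small lipid-soluble ligands, and 9 of their genes were followed here in newly made RNA of mouse macrophages: the peroxisome proliferator-activated receptors Pparg and Ppard, the vitamin D receptor Vdr, the retinoid X receptors Rxra and Rxrb, the retinoic acid receptor Rara, the glucocorticoid receptor Nr3c1, and the REV-ERB repressors Nr1d1 and Nr1d2. They were taken by symbol from the probe annotation, and they are 9 of the 19937 genes tested. Each was measured by exactly 1 probe set, and that probe set named no other gene. The rule that picks them uses symbols and no threshold on a measured value, but the list was drawn up with earlier results of these data known.

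The study labelled RNA with 4-thiouridine, a uridine analogue that cells build into transcripts as they are made, and hybridised the purified labelled RNA to whole-transcript arrays. Labelling lasted 60 min, and in the stimulated cultures it started 30 min into treatment with lipopolysaccharide (LPS), an endotoxin of gram-negative bacteria that macrophages sense through Toll-like receptor 4. The 12 arrays form 4 groups of 3. The first pair of groups is bone marrow-derived macrophages (BMM) from C57BL/6 mice, grown in DMEM with M-CSF, as mock-treated or LPS-treated cultures. The other pair is MPI-2, a macrophage line of C57BL/6 fetal liver that was grown in RPMI with GM-CSF and given the same 2 treatments. Both media held 10% fetal calf serum. MPI-2 is a single line and its growth factor and medium also differ from those of BMM, so cell origin, growth factor and medium cannot be told apart in any comparison of the 2 cell types. By their titles the samples are numbered biological replicates, though whether these were separate animals, cultures or passages is not said, and the p-values rest on the spread between them.

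Most of these receptors bind DNA as heterodimers with a retinoid X receptor: PPARs, VDR and the retinoic acid receptor all take RXR as their partner, and many of their sites are built from copies of the hexamer AGGTCA. Without ligand they hold corepressors at their target genes, and with ligand they exchange them for coactivators. The glucocorticoid receptor works as a homodimer or tethered to other factors and dampens inflammatory transcription, while the REV-ERBs lack a coactivator-binding helix, repress their targets constitutively and form an arm of the circadian clock. In macrophages PPAR-gamma is known for lipid handling and for the differentiation of alveolar macrophages under GM-CSF.

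Newly made RNA of Pparg, Vdr, Rxra, Rara and Nr1d1 fell with LPS in both cell types. Of these, the promoters with AGGTCA nearest the start are shown for Pparg and Rxra, which were picked because they hold the hexamer, and that of Vdr as one without it. Each is the 250 bases before a RefSeq transcript start in GRCm38.p6, 5′ to 3′ on the strand of the gene, with AGGTCA on either strand in capitals. The Pparg window, the second of 3 RefSeq starts, is chr6:115362099-115362348 on the plus strand. The Rxra window, the second of 2, is chr2:27709042-27709291 on the plus strand, and the Vdr window, the only one, is chr15:97908297-97908546 on the minus strand.
Pparg: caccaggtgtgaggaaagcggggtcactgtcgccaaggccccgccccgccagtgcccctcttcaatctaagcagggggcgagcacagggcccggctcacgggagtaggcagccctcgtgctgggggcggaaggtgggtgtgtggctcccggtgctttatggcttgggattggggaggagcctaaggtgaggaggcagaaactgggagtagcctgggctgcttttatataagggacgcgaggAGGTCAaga
Rxra: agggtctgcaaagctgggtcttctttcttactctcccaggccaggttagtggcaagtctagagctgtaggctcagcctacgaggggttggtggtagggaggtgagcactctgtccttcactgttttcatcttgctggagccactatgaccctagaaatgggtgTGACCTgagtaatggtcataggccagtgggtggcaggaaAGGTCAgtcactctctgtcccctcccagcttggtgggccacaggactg
Vdr: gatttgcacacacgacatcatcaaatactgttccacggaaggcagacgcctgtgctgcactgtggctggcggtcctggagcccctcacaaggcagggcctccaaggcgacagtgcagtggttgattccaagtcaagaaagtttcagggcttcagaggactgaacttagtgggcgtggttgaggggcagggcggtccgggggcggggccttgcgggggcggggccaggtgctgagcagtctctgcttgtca
Pparg holds 1 copy of the hexamer next to the start, Rxra holds 1 on each strand, and the Vdr window holds none. The other windows of these 5 genes were without it except the first of Pparg, so the first start of Rxra, all 4 of Rara and the only one of Nr1d1 had 0. RefSeq gave 15 windows for 8 of the 9 genes. AGGTCA occurred in 4 of them, belonging to Pparg, Rxra and Nr1d2, the E-box CACGTG in 1 of Rara and the AP-1 motif TGACTCA in 0. Of 32851 promoter windows of the same length, 14.0% held AGGTCA, 6.02% held CACGTG and 4.46% held TGACTCA, on either strand. A match describes these letters and is not evidence of binding, and which start the cells used was not measured.

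Values are the deposited log2 levels, differences are on that log2 scale with their standard error (SE), and adjusted p-values are limma's after the Benjamini-Hochberg method over all 19937 genes, with a threshold of 0.05. "Rose", "fell", "higher" and "lower" below mean past that threshold where a test is given. A level counts as above background when it exceeds 3.37, the 95th percentile of 1022 olfactory receptor genes. In macrophages such genes serve as a set with little or no signal. As a check of the labelled cell type, all 13 measured macrophage markers lay above background in every group, and the Fc, LPS and colony-stimulating factor receptors were among them. Siglecf did so narrowly, at 3.39 in mock-treated MPI-2. Lists for T cells, B cells, neutrophils, erythroid cells, hepatocytes and fibroblasts averaged between 2.77 and 3.81 on every array. The fibroblast list, at 3.43 to 3.81, was above background on every array, with 3 or 4 of its 6 genes above it in each group. Cd3e, Elane, S100a8, Apoa1, Hnf4a, Col1a1, Col1a2 and Pdgfra from these lists lay above background in every group. The neutrophil list moved with LPS in MPI-2, from 3.01 to 3.13 on the mock arrays to 3.45 to 3.51 on the LPS arrays, with 2 and then 3 of its 7 genes above background, and of these S100a8 had means of 3.39 and 3.52 in BMM, 4.80 in mock-treated MPI-2 and 6.57 in MPI-2 with LPS. In the fibroblast list, Pdgfra had means of 3.39 and 3.50 in BMM, 6.13 in mock-treated MPI-2 and 4.41 in MPI-2 with LPS. The part of these genes in the results was not tested. All 6 early LPS response genes rose in both cell types, a call shared by 2.59% of all genes. Within-group correlations over all genes were 0.9746 to 0.9890 in BMM and 0.9943 to 0.9956 in MPI-2, and BMM mock array 1 and BMM LPS array 3 were the least like their groups.

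In bulk RNA, fewer transcribing cells and less RNA per cell cannot be told apart. In BMM, LPS lowered 6 of the 9 receptor genes and raised 1. Over all genes 15.4% were called lower and 10.3% higher. All 9 had an overall mean above background. Of the 12015 genes with such a mean, 2951 were called lower and 1715 higher. In MPI-2, LPS lowered 5 and raised 2, where 9.58% of all genes were called lower and 5.17% higher. Of the 12015, 1861 were lower and 965 higher. Pparg, Vdr, Rxra, Rara and Nr1d1 fell in both cell types, a call shared by 5.2% of all genes, and Nr3c1 rose in both, shared by 2.59%. The 2 comparisons contrast different arrays, but both take the spread of a gene from all 12, so their calls are not independent. Across the cell types, 5 of the 9 were higher in mock-treated MPI-2 than in mock-treated BMM and 2 were lower, against 20.6% and 18.0% of all genes. Of the 12015, 3999 were higher and 2761 lower. Under LPS 5 of the 9 were higher in MPI-2 and 0 lower, against 22.5% and 21.6%. Of the 12015, 4395 were higher and 2833 lower. Separation of the arrays, given below per gene, was common. Mock and LPS arrays did not overlap for 32.0% of all genes in BMM and 37.1% in MPI-2. Arrays of the 2 cell types did not overlap for 52.4% of all genes without LPS and 55.4% with it.

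**Figure D1:**
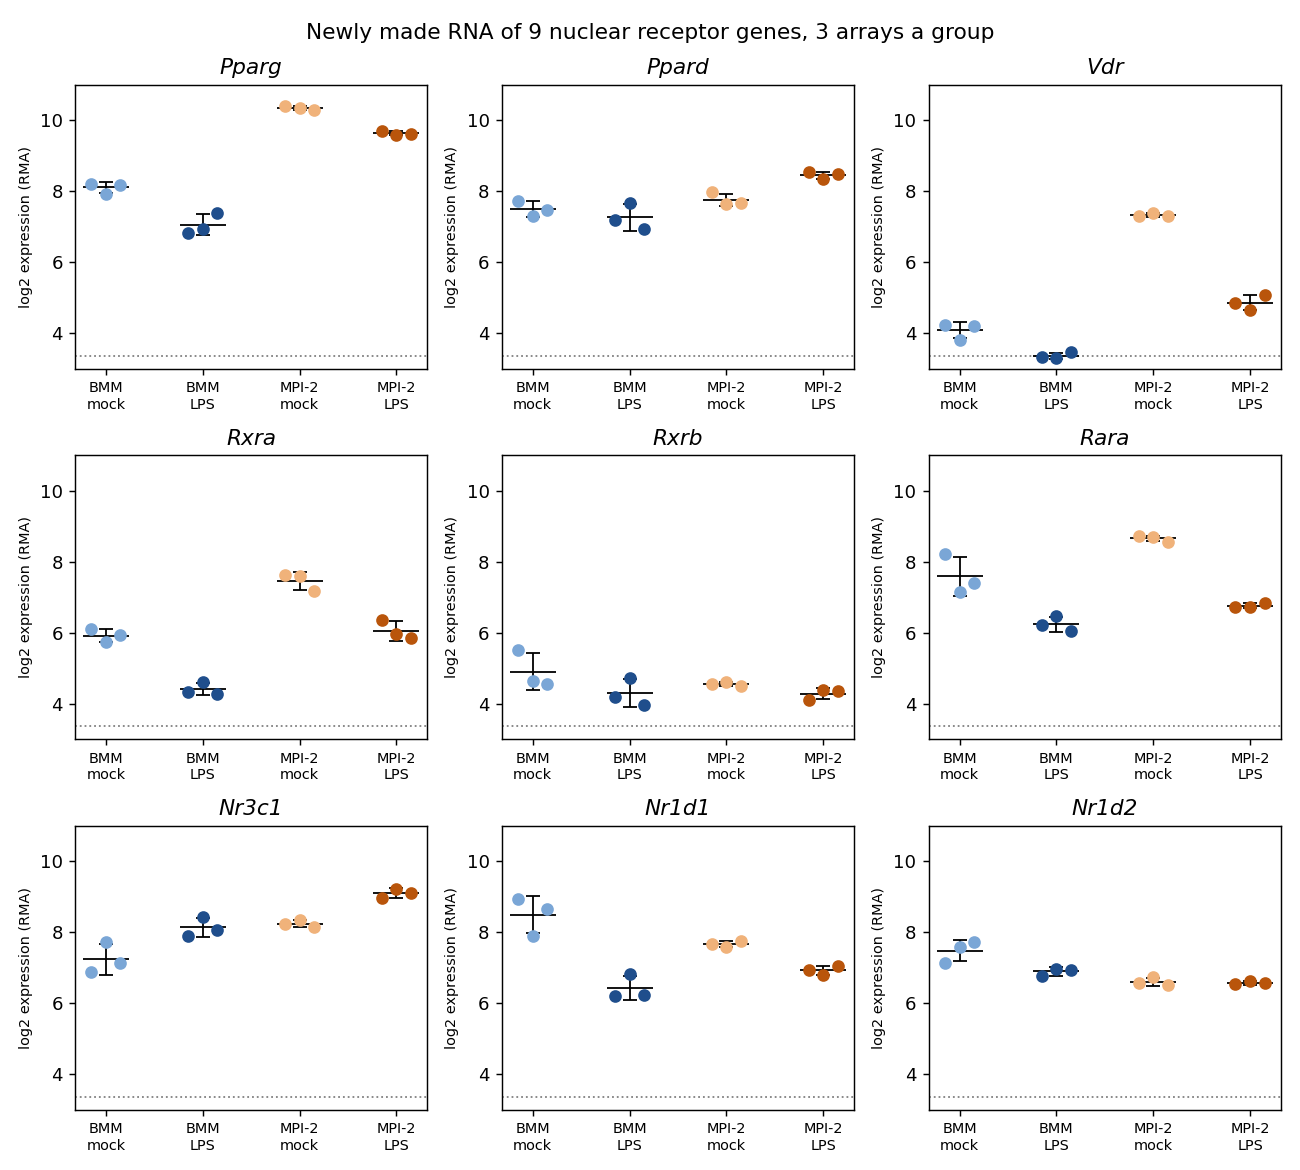
Deposited log2 level of each of the 9 nuclear receptor genes on every array, by group (BMM mock, BMM LPS, MPI-2 mock, MPI-2 LPS; points are arrays, bars are means of 3 with SD, and the dotted line is the background level). Pparg and Vdr are highest in mock-treated MPI-2, at means of 10.35 and 7.34, and fall with LPS in both cell types. Nr3c1 has its highest mean, 9.11, in LPS-treated MPI-2. Levels of different genes come from different probe sets and are not comparable with each other.

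Pparg, the lipid-sensing receptor, separated the 4 groups. Mock-treated BMM read 8.22, 7.94 and 8.18, and BMM with LPS 6.84, 6.94 and 7.38. Mock-treated MPI-2 read 10.40, 10.36 and 10.29, and MPI-2 with LPS 9.70, 9.60 and 9.61. The order was MPI-2 mock, MPI-2 LPS, BMM mock and BMM LPS, and no group overlapped its neighbour. LPS lowered newly made Pparg RNA by 1.05 ± 0.14 in BMM, a 2.08-fold fall (limma, adjusted p = 3.42e-05), and by 0.71 ± 0.14 in MPI-2, a 1.64-fold fall (adjusted p = 0.00234). The responses differed by 0.34 ± 0.20, with a 95% interval of -0.09 to 0.77 (adjusted p = 0.357). Pparg was 4.72-fold higher in MPI-2 than in BMM without LPS (2.24 ± 0.14, adjusted p = 4.29e-09) and 5.98-fold higher with it (2.58 ± 0.14, adjusted p = 6.24e-10).

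Ppard, the broadly expressed relative that drives fatty acid oxidation genes, went another way. It read 7.74, 7.31 and 7.47 in mock-treated BMM and 7.18, 7.68 and 6.94 with LPS, groups that overlapped. In MPI-2 it read 7.97, 7.64 and 7.66 without LPS and 8.55, 8.35 and 8.49 with it. Every LPS array of MPI-2 lay above every mock array. Ppard rose in MPI-2 by 0.70 ± 0.18, or 1.63-fold (adjusted p = 0.0117), while in BMM the difference was -0.24 ± 0.18 with a 95% interval of -0.61 to 0.14 (adjusted p = 0.375). The difference between the responses, 0.94 ± 0.25, passed the threshold (adjusted p = 0.0193). Both of those calls were lost when mock array 2, mock array 3 or LPS array 1 of MPI-2 was left out, where the MPI-2 response was 0.65, 0.65 and 0.66 and the difference 0.88, 0.89 and 0.90. The MPI-2 response kept its call in the other alternatives, among them the fit of the 6 MPI-2 arrays alone. Its lowest adjusted p among the alternatives was 0.000203. Mock-treated cells of the 2 types differed by 0.25 ± 0.18 (95% interval -0.12 to 0.63, adjusted p = 0.276), and LPS-treated MPI-2 was 2.29-fold above LPS-treated BMM (1.20 ± 0.18, adjusted p = 4.38e-05). Within the family, then, Pparg fell and Ppard rose in the same MPI-2 cultures.

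Vdr, the receptor for the active form of vitamin D, showed the largest LPS response of the 9 genes and, in mock-treated cells, the largest cell type difference. It read 7.31, 7.40 and 7.30 in mock-treated MPI-2 and 4.84, 4.66 and 5.07 after LPS. In BMM it read 4.23, 3.82 and 4.21 without LPS and 3.32, 3.30 and 3.47 with it, and the mean of the last group, 3.36, lay at the background level of 3.37. All 4 groups stood apart from each other. LPS lowered Vdr by 2.48 ± 0.14 in MPI-2, a 5.58-fold fall (adjusted p = 9.34e-09), and by 0.72 ± 0.14 in BMM (adjusted p = 0.00108). The responses differed by -1.76 ± 0.20 (adjusted p = 1.71e-05). Vdr in BMM ended at background, where a further fall could not be measured, so how much of the difference between the responses comes from that floor was not tested. Before LPS, Vdr was 9.54-fold higher in MPI-2 than in BMM (3.25 ± 0.14, adjusted p = 5.92e-11). With LPS it was still 2.82-fold higher (1.49 ± 0.14, adjusted p = 3.26e-07), a value that rests on a BMM group at background.

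Rxra encodes the shared dimer partner. It read 6.10, 5.74 and 5.93 in mock-treated BMM and 4.33, 4.61 and 4.29 after LPS. In MPI-2 it read 7.64, 7.60 and 7.18 without LPS and 6.36, 5.96 and 5.85 with it. LPS-treated MPI-2 and mock-treated BMM overlapped, and the other neighbouring groups did not. Rxra fell by 1.52 ± 0.17 in BMM, or 2.86-fold (adjusted p = 4.3e-06), and by 1.42 ± 0.17 in MPI-2, or 2.68-fold (adjusted p = 2.32e-05). The responses differed by 0.10 ± 0.24, with a 95% interval of -0.41 to 0.60 (adjusted p = 0.887). Rxra was higher in MPI-2 by 1.55 ± 0.17 without LPS and by 1.65 ± 0.17 with it (adjusted p = 1.75e-06 and 7.25e-07).

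Rxrb, the second retinoid X receptor, gave no call in any of the 5 comparisons. It read 5.52, 4.65 and 4.57 in mock-treated BMM, 4.20, 4.74 and 3.97 in BMM with LPS, 4.55, 4.61 and 4.49 in mock-treated MPI-2 and 4.11, 4.38 and 4.36 in MPI-2 with LPS. The BMM groups overlapped, and the highest array, 5.52, was mock array 1 of BMM. Its LPS difference was -0.61 ± 0.23 in BMM (95% interval -1.09 to -0.13, adjusted p = 0.0616) and -0.26 ± 0.23 in MPI-2 (-0.74 to 0.22, adjusted p = 0.601). The BMM difference passed the threshold when the fit omitted mock array 2 (-0.74), mock array 3 (-0.78) or LPS array 2 (-0.83), and among genes above background (adjusted p = 0.0407). Rxra and Rxrb thus gave different calls in the same arrays, though the difference between the 2 genes was not tested. The third family member, Rxrg, had group means of 2.29 to 2.59, under background.

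Rara, the retinoic acid receptor of myeloid cells, read 8.21, 7.15 and 7.40 in mock-treated BMM and 6.21, 6.47 and 6.04 after LPS. In MPI-2 it read 8.72, 8.70 and 8.57 without LPS and 6.74, 6.73 and 6.85 with it. Mock and LPS arrays did not overlap in either cell type. Rara fell by 1.35 ± 0.21 in BMM, or 2.54-fold (adjusted p = 0.000127), and by 1.89 ± 0.21 in MPI-2, or 3.72-fold (adjusted p = 1.09e-05). The responses differed by -0.55 ± 0.29, with a 95% interval of -1.17 to 0.07 (adjusted p = 0.295), and this passed the threshold when BMM mock array 1 was omitted (-0.86). Rara was 2.11-fold higher in mock-treated MPI-2 than in mock-treated BMM (1.08 ± 0.21, adjusted p = 0.000584). Under LPS the difference was 0.53 ± 0.21 at an adjusted p of 0.0501, and it crossed the threshold in 10 of 21 alternatives, with values from 0.05 to 0.64. However, it was 0.05 under cyclic loess (adjusted p = 0.895) and 0.10 under quantile normalization (adjusted p = 0.79).

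Nr3c1, the glucocorticoid receptor, was the gene that rose in both cell types. It read 6.88, 7.72 and 7.13 in mock-treated BMM and 7.90, 8.43 and 8.08 after LPS, and 8.23, 8.35 and 8.16 in mock-treated MPI-2 against 8.98, 9.23 and 9.11 after LPS. All LPS arrays of a cell type lay above its mock arrays. The rise was 0.89 ± 0.19 in BMM (1.86-fold, adjusted p = 0.00208) and 0.86 ± 0.19 in MPI-2 (1.82-fold, adjusted p = 0.00477). The responses differed by -0.03 ± 0.27, and the 95% interval of -0.60 to 0.54 bounds any difference between them (adjusted p = 0.974). Nr3c1 was 2.0-fold higher in mock-treated MPI-2 than in mock-treated BMM (1.0 ± 0.19, adjusted p = 0.000504) and 1.96-fold higher with LPS (adjusted p = 0.00059). Mock-treated MPI-2 overlapped LPS-treated BMM.

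Nr1d1, which encodes REV-ERB-alpha, fell more in BMM. It read 8.93, 7.90 and 8.66 in mock-treated BMM and 6.22, 6.82 and 6.24 after LPS, and 7.67, 7.59 and 7.76 in mock-treated MPI-2 against 6.94, 6.79 and 7.05 after LPS. Mock and LPS arrays did not overlap in either cell type. The fall was 2.07 ± 0.22 in BMM, or 4.19-fold (adjusted p = 2.96e-06), and 0.75 ± 0.22 in MPI-2, or 1.68-fold (adjusted p = 0.0298), and the difference of 1.32 ± 0.31 passed the threshold (adjusted p = 0.00909). Omitting mock array 1, 2 or 3 or LPS array 1, 2 or 3 of MPI-2 ended the MPI-2 call. The differences were then -0.68 to -0.81, with adjusted p of 0.0574 to 0.12. The call was kept in the other alternatives, among them the fit of the 6 MPI-2 arrays alone. Its lowest adjusted p among the alternatives was 9.47e-05. The SDs without and with LPS were 0.53 and 0.34 in BMM and 0.086 and 0.13 in MPI-2, while the main fit shares 1 spread. Nr1d1 was lower in mock-treated MPI-2 by 0.82 (adjusted p = 0.00742), whereas under LPS the cell types differed by 0.50 ± 0.22 (95% interval 0.03 to 0.97, adjusted p = 0.0775). That last value passed when mock array 1 (0.50), mock array 2 (0.50) or LPS array 2 (0.70) of BMM was omitted, but it was 0.02 under cyclic loess (adjusted p = 0.955) and 0.08 under quantile normalization (adjusted p = 0.842). The gene overlaps Thra, a thyroid hormone receptor, in the annotation, and strand use of the probes was not checked. Thra read -0.61 ± 0.17 for LPS in BMM (adjusted p = 0.0131), a call that ended when mock array 1 (-0.45) or LPS array 2 (-0.48) of BMM was omitted, under cyclic loess (-0.34), under quantile normalization (-0.41) and in the fit of the 6 BMM arrays (adjusted p = 0.0601), and -0.17 ± 0.17 in MPI-2 (adjusted p = 0.654).

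Nr1d2, which encodes REV-ERB-beta, read 7.14, 7.58 and 7.72 in mock-treated BMM and 6.76, 6.98 and 6.95 after LPS. In MPI-2 it read 6.56, 6.74 and 6.53 without LPS and 6.55, 6.64 and 6.56 with it. The BMM groups did not overlap, while the MPI-2 groups did. It fell by 0.58 ± 0.14 in BMM, or 1.5-fold (adjusted p = 0.0067), and differed by -0.03 ± 0.14 in MPI-2 (95% interval -0.33 to 0.28, adjusted p = 0.962). The difference between the responses, 0.56 ± 0.20 with an interval of 0.12 to 0.99, did not pass (adjusted p = 0.0962), and it passed when BMM mock array 1 was omitted (0.73). The BMM call was lost when only the 6 BMM arrays were fitted (adjusted p = 0.0527). Mock-treated MPI-2 was 1.83-fold lower than mock-treated BMM (-0.87 ± 0.14, adjusted p = 0.000162). Under LPS the difference was -0.31 ± 0.14 (adjusted p = 0.0915), with the same value but past the threshold when BMM mock array 1 was omitted.

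**Figure D2:**
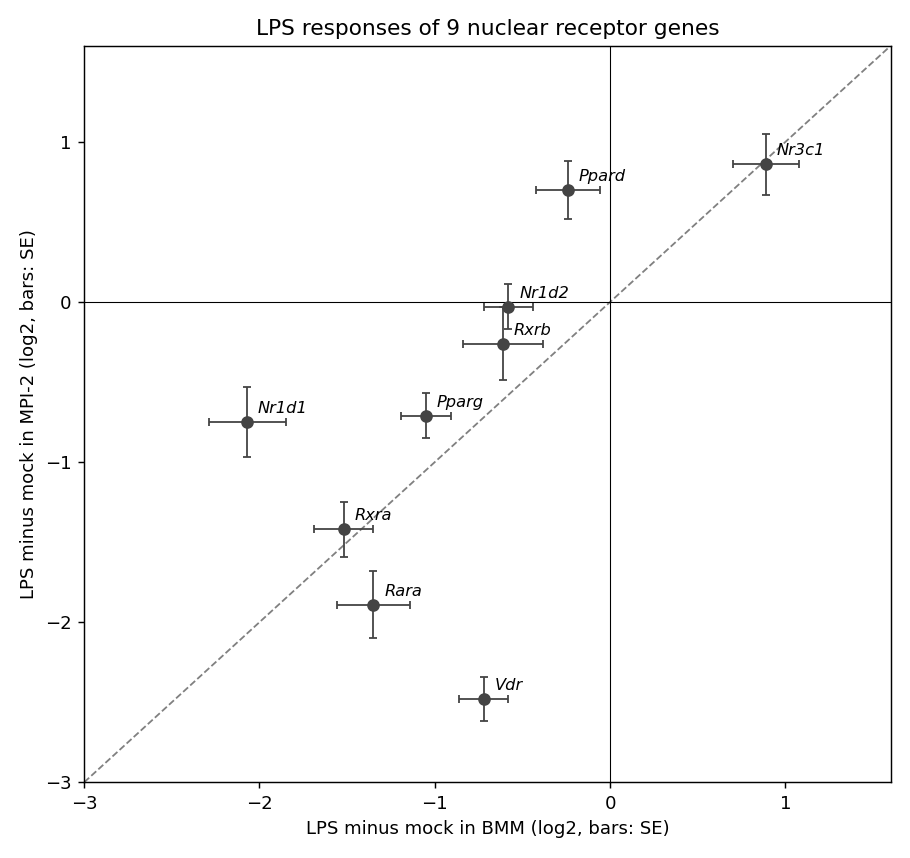
LPS response (log2 difference, LPS minus mock) of the 9 nuclear receptor genes in BMM on the horizontal axis and MPI-2 on the vertical, with SE bars and a dashed line of equal response. Vdr falls furthest in MPI-2, -2.48, and Nr1d1 furthest in BMM, -2.07, while Nr3c1 rises in both, 0.89 and 0.86.

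The difference between the LPS responses, MPI-2 minus BMM, was called for 3 of the 9 genes. It was positive for Nr1d1, which fell less in MPI-2, and for Ppard, which rose in MPI-2 and was not called in BMM. It was negative for Vdr, which fell more in MPI-2. Over all genes 7.08% had a called positive difference and 6.27% a called negative one. For Pparg, Rxra, Rxrb, Rara, Nr3c1 and Nr1d2 the intervals above bound the difference without showing that the responses were alike.

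**Figure D3:**
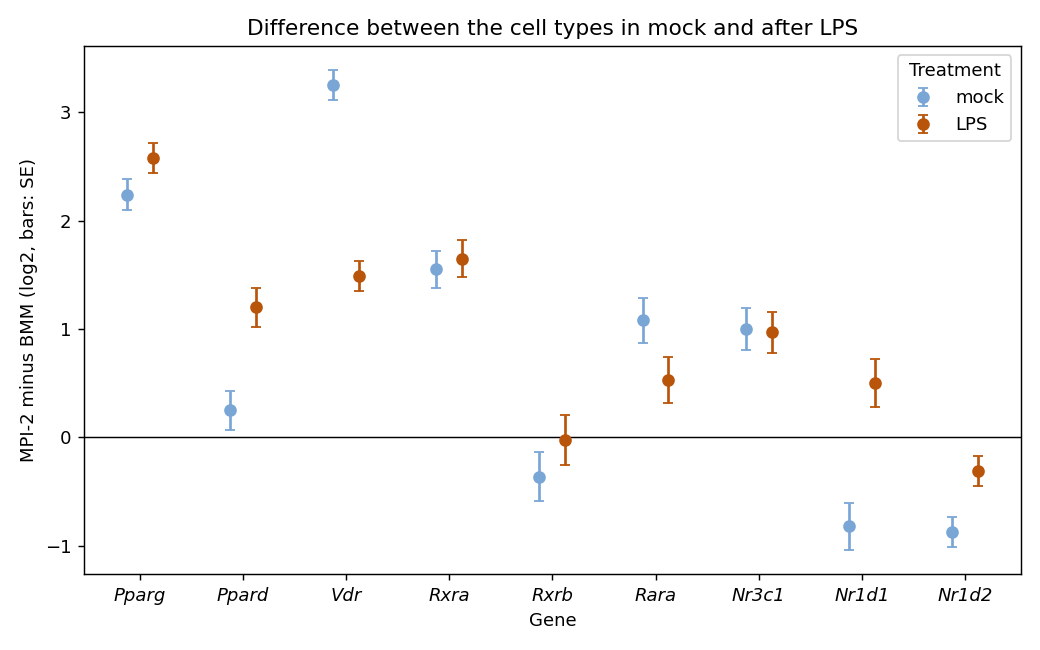
Difference between MPI-2 and BMM for the 9 nuclear receptor genes, as log2 values with SE bars in mock-treated and in LPS-treated cells. Vdr at 3.25 and Pparg at 2.24 lead among mock-treated cells, and under LPS Vdr is at 1.49 and Pparg at 2.58.

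The size of several cell type differences depended on how the arrays were scaled against each other. Cyclic loess, which evens out intensity-dependent differences between arrays, moved the mock difference of Rara from 1.08 to 0.66 and that of Nr3c1 from 1.0 to 0.57, with both calls kept. Under LPS it moved Nr3c1 from 0.97 to 0.52 and Ppard from 1.20 to 0.73, again with both calls kept. The mock difference of Ppard, which was not called, turned to -0.17, and the LPS difference of Nr1d2 went from -0.31 to -0.79 and passed the threshold, as it did with quantile normalization at -0.66. The fall of Vdr with LPS in BMM was -0.72 as deposited and -0.48 after cyclic loess, still called.

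Leaving out the 2 BMM arrays least like their groups kept all 7 calls for LPS in BMM. Without them Pparg read -1.16, Vdr -0.70, Rxra -1.37, Rara -0.93, Nr1d1 -1.76, Nr1d2 -0.78 and Nr3c1 0.74. The difference of responses read 1.01 for Nr1d1, 0.66 for Ppard and -1.78 for Vdr, each still called. It was also called for Rara (-0.96, adjusted p = 0.00121) and Nr1d2 (0.75, adjusted p = 0.00581). The cell type differences of Pparg, Vdr, Rxra and Nr3c1 kept their calls in both treatments, and Rara between LPS-treated cells gained one (0.43, adjusted p = 0.013).

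Genes known as PPAR targets in lipid handling fell with LPS more often than they rose in both cell types. Of 15 measured, 8 fell and 0 rose with LPS in BMM, where 15.4% of all genes fell and 10.3% rose. The median difference was -0.51 against 0.04 over all genes, and 1 rose when BMM LPS array 2 was omitted. An overall mean above background was found for 14 of the 15. Among the 12015 genes with such a mean, 2951 fell and 1715 rose in BMM, with a median of -0.08. In MPI-2, 8 fell and 1 rose, against 9.58% and 5.17% of all genes, with a median of -0.61 against 0.02. Among the 12015, 1861 fell and 965 rose there, with a median of -0.03. Abcg1, Acadm, Angptl4, Cpt1a, Ech1, Fabp5 and Plin2 fell in both cell types, which is 7 of the 15, against 5.2% of all genes. Acadm, which begins the breakdown of medium-chain fatty acids, fell by 1.64 ± 0.14 in BMM and by 0.61 ± 0.14 in MPI-2 (adjusted p = 3.3e-07 and 0.0074). Cpt1a, the gatekeeper of fatty acid entry into mitochondria, fell by 0.94 ± 0.16 in BMM and by 2.42 ± 0.16 in MPI-2, a difference of -1.48 ± 0.22 between the responses (adjusted p = 0.000232). The cholesterol exporter Abcg1 fell by 2.38 ± 0.24 and by 1.62 ± 0.24. Fabp4, a fatty acid binding protein and a classical PPAR-gamma target, rose by 1.53 ± 0.17 in MPI-2 (adjusted p = 1.33e-05) and read 0.27 ± 0.17 in BMM (adjusted p = 0.281). The list was chosen for its link with PPARs, with earlier results of these data known, and the median describes it without a test.

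Between the cell types, 9 of the 15 PPAR targets were higher in mock-treated MPI-2 and 2 lower, against 20.6% and 18.0% of all genes. The median was 0.85 against -0.10 over all genes. Under LPS the counts were again 9 and 2, against 22.5% and 21.6%, with a median of 0.53 against -0.14. Among the 12015 genes above background, 3999 were higher and 2761 lower in mock-treated MPI-2, and 4395 and 2833 under LPS. Angptl4, an inhibitor of lipoprotein lipase, was higher by 2.36 ± 0.16 in mock-treated MPI-2 (adjusted p = 9.67e-09), and Fabp5 by 2.29 ± 0.18 (adjusted p = 4.16e-08). The scavenger receptor Cd36 was lower by 3.34 ± 0.23 in mock-treated MPI-2 (adjusted p = 1.11e-08), opposite to Pparg. Under cyclic loess, 4 targets rather than 2 were lower in mock-treated MPI-2.

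**Figure D4:**
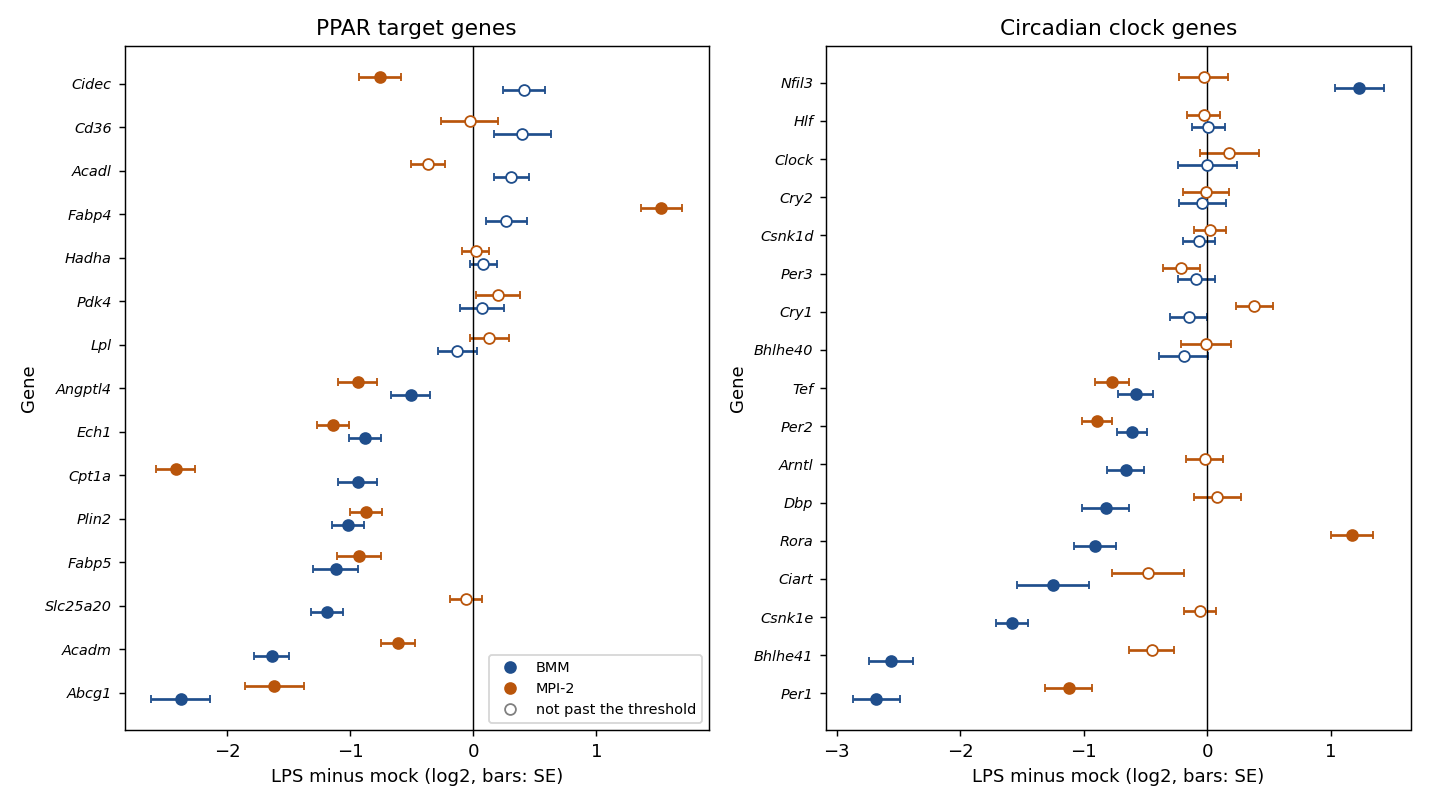
LPS response (log2 difference with SE bars) of each measured PPAR target and circadian clock gene in BMM and MPI-2, 1 row per gene, with open points where the change did not pass the threshold. The PPAR target median is -0.51 in BMM and -0.61 in MPI-2, and the clock median is -0.58 in BMM and -0.03 in MPI-2.

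The clock genes include direct targets and partners of the REV-ERBs. Of 17 measured, 9 fell and 1 rose with LPS in BMM (median -0.58), against 15.4% and 10.3% of all genes. In MPI-2, 3 fell and 1 rose (median -0.03), against 9.58% and 5.17%, and 2 rose when BMM LPS array 2 was omitted. An overall mean above background was found for 16 of the 17. Among the 12015 genes with such a mean, 2951 fell and 1715 rose in BMM, and 1861 and 965 in MPI-2. Per1, Per2 and Tef fell in both cell types, a call shared by 5.2% of all genes. Per1, a period gene that is also a glucocorticoid target, fell by 2.68 ± 0.19 in BMM and by 1.12 ± 0.19 in MPI-2 (adjusted p = 4.82e-08 and 0.000779), and the responses differed by 1.56 ± 0.27 (adjusted p = 0.00102). Bhlhe41, a repressor of clock transcription, fell by 2.56 ± 0.18 in BMM (adjusted p = 4.79e-08) and read -0.45 ± 0.18 in MPI-2 (adjusted p = 0.143). Nfil3, a repressor that acts on the same D-box elements as Tef, rose by 1.23 ± 0.20 in BMM (adjusted p = 0.00027). Rora, which activates the elements that REV-ERBs repress, rose by 1.17 ± 0.17 in MPI-2 (adjusted p = 0.000194) and fell by 0.91 ± 0.17 in BMM (adjusted p = 0.000917). It was the 1 clock gene called in opposite directions, with a difference of 2.08 ± 0.25 between the responses (adjusted p = 2.56e-05). Bhlhe41 and its relative Bhlhe40 were higher in mock-treated MPI-2 than in BMM by 3.12 ± 0.18 and 3.13 ± 0.20 (adjusted p = 2.01e-09 and 3.75e-09).

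The other target lists were mixed. Of all genes, LPS lowered 15.4% and raised 10.3% in BMM, and lowered 9.58% and raised 5.17% in MPI-2. Among the 12015 genes above background, LPS lowered 2951 and raised 1715 in BMM, and lowered 1861 and raised 965 in MPI-2. By overall mean, 4 of 6 vitamin D, 7 of 13 retinoid and 13 of 15 glucocorticoid genes lay above background. The counts below are to be read beside these values. For vitamin D metabolism and targets, 3 of 6 measured genes fell and 0 rose with LPS in BMM, and 2 fell and 1 rose in MPI-2. The anticoagulant receptor Thbd fell in both, by 2.15 ± 0.16 and 1.62 ± 0.16 (adjusted p = 4.98e-08 and 2.75e-06). The 1 gene that rose in MPI-2, Camp, had a mean of 3.0 without LPS, under background, and 3.57 with it. Camp was no longer called, which left 0, when array 2 of either MPI-2 group was omitted. Whether Camp responds to the vitamin D receptor in these mouse cells was not tested. For retinoid metabolism and targets, 2 of 13 fell and 0 rose in each cell type, close to the 15.4% and 9.58% of all genes that were lower. In BMM 1 rose when LPS array 2 or 3 was omitted, and in MPI-2 1 rose when BMM LPS array 2 was. In this list Dhrs3, which reduces retinaldehyde back to retinol, fell by 2.56 ± 0.20 in BMM and 1.23 ± 0.20 in MPI-2 (adjusted p = 9.27e-08 and 0.000375). For glucocorticoid targets and receptor chaperones, 4 of 15 fell and 2 rose in BMM, and 4 fell and 3 rose in MPI-2. Nr3c1 rose in both cell types, and its classical target Tsc22d3 (GILZ) fell by 2.27 ± 0.14 in BMM and 0.99 ± 0.14 in MPI-2 (adjusted p = 9.18e-09 and 0.00015). Errfi1 rose by 1.88 ± 0.17 and 1.09 ± 0.17. Mt2 rose in BMM (1.09 ± 0.21, adjusted p = 0.00116), a call lost under cyclic loess (0.57). Dusp1 (0.82 ± 0.17, adjusted p = 0.00392) and the chaperone Hsp90aa1 (1.04 ± 0.18, adjusted p = 0.000795) rose in MPI-2. Whether these targets follow the RNA of the receptor was not tested. In MPI-2 the fallen count dropped from 4 to 2 when mock array 2, mock array 3 or LPS array 1 of MPI-2 was omitted.

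The remaining nuclear receptors were mostly at low levels. Of 36 measured, 15 had an overall mean above background. With LPS, 5 fell and 0 rose in BMM, and 3 fell and 4 rose in MPI-2, and the counts that fell lie near the shares of all genes called lower (15.4% and 9.58%). The shares of all genes called higher were 10.3% and 5.17%. The immediate early receptor Nr4a1 fell by 2.71 ± 0.27 in BMM (adjusted p = 1.43e-06), and its response differed between the cell types by 3.73 ± 0.38 (adjusted p = 6.14e-06). In MPI-2 the count that rose dropped to 1 when mock array 1, LPS array 2 or LPS array 3 was omitted, and the count that fell dropped to 1 when mock array 3, LPS array 1 or LPS array 3 was omitted. In BMM 1 receptor rose when mock array 1 or LPS array 3 was omitted. Among 14 coactivator genes, 2 fell and 1 rose in BMM, near the shares of all genes (15.4% and 10.3%), and 6 fell and 1 rose in MPI-2, against 9.58% and 5.17%. By overall mean, 13 of the 14 lay above background, as did all 8 corepressor genes. Among the 12015 such genes, 2951 fell and 1715 rose in BMM, and 1861 and 965 in MPI-2. Ppargc1b, a PPAR coactivator, fell by 1.63 ± 0.19 in MPI-2 (adjusted p = 2.3e-05). The gene that rose in BMM was the acetyltransferase Crebbp (0.60 ± 0.16, adjusted p = 0.0103), and in MPI-2 it was Ncoa4 (0.61 ± 0.18, adjusted p = 0.0308). The Crebbp call ended under quantile normalization (0.34) and with array weights (0.46), and that of Ncoa4 under cyclic loess (0.59), quantile normalization (0.52) or when mock array 1 (0.61), mock array 2 (0.47), LPS array 1 (0.66) or LPS array 3 (0.48) of MPI-2 was omitted. Among 8 corepressor genes, 2 rose and 2 fell in BMM, against 10.3% and 15.4% of all genes. In MPI-2, 0 rose and 1 fell, against 5.17% and 9.58%. Tbl1x, a subunit of the NCoR and SMRT corepressor complexes, rose by 1.28 ± 0.15 in BMM (adjusted p = 6.33e-06). In MPI-2 it read -0.47 ± 0.15 (adjusted p = 0.0421), a call that ended when any single one of the MPI-2 arrays was omitted (-0.52 to -0.42), and its responses differed by -1.75 ± 0.21 (adjusted p = 2.62e-05). Its relative Tbl1xr1 fell by 1.11 ± 0.18 in BMM (adjusted p = 0.000192). The count that fell in BMM dropped to 1 when mock array 2, mock array 3 or LPS array 3 of BMM was omitted.

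Genes with the most similar profile over the 12 arrays were sought among 11306 genes by the root mean square difference of log2 values, each profile centred on its own mean. For Pparg, whose own profile had a root mean square of 1.29, the nearest were the mitochondrial peroxidase Prdx3 (0.173), Fabp5 (0.174) and Dpagt1 (0.176). For Vdr they were Adipor2, Ccn3 and Lrp8, farther off at 0.324 to 0.327. For Rxra the nearest was Cd81 (0.212), for Rara Pla2g15 (0.194), for Nr3c1 Atp9b (0.177) and for Nr1d1 Hexa (0.161). For Nr1d2 it was Ddx3x (0.116) and for Ppard Zfp275 (0.145). These distances describe 12 arrays in 4 groups, so genes that share the same group pattern come close.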

How the data were processed

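Per the submitters' processing notes, the authors used RMA and affy (no version is given in those notes) to make the deposited log2 values. RMA removes background, quantile-normalizes the probes and fits 1 value per probe set, so a deposited log2 level has meaning against the rest of its array. A single RMA run over all arrays is not stated there. The arrays did not share 1 spread of gene values. Their interquartile range was 2.80 to 2.93 in mock-treated BMM and 2.34 to 2.74 in BMM with LPS. In MPI-2 it was 3.27 to 3.47 without LPS and 3.10 to 3.22 with it. The part of this in the differences was not tested beyond the cyclic loess and quantile alternatives. Arrays have no read depth, so their number, 3 a group, limits the precision.

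Of 34760 probe sets, 21640 named 1 gene, 1321 several and 11799 none. Per gene the probe set with the highest mean stood for it, leaving 19937 genes, none filtered out. Limma 3.58.1 (R 4.3.3) fitted 4 group means and 1 shared spread per gene to the 12 arrays. Adjustment was by Benjamini-Hochberg over all genes, with a threshold of 0.05. The fit was tested on simulated data. Members and lists were chosen with earlier results of these data known. Named were all 9 members, up to 3 called genes per list and comparison by smallest adjusted p, called genes against their list's majority, the 3 nearest profiles per member, given in part, and genes called in both cell types. Protein sequences were not used here. Alternatives covered normalization, filters, probe set choice, a replicate block, array weights, an intensity trend and single arrays left out. Replicate numbers came from the titles. Deviations of same-numbered arrays correlated between -0.154 and 0.242, and those of differently numbered arrays between -0.197 and 0.214. These values cannot tell whether the numbers pair samples, and the main fit did not pair them.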

Additional observations from a re-analysis of the deposited data

Results flagged for a closer look

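The LPS responses of 3 of the receptor genes differed between the cell types by limma's test of the difference itself, MPI-2 minus BMM, with Benjamini-Hochberg adjustment over all genes. The difference was 1.32 for Nr1d1 (adjusted p = 0.00909), 0.94 for Ppard (adjusted p = 0.0193) and -1.76 for Vdr (adjusted p = 1.71e-05), all log2. For Nr1d1 all 3 LPS arrays of each cell type lay under its mock arrays, as for 16.5% of all genes in BMM and 20.5% in MPI-2. For Ppard the LPS arrays of MPI-2 lay above its mock arrays, as for 16.6% of all genes. For Vdr the BMM arrays with LPS averaged 3.36, at background.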

How the results depend on the processing

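Members' values were recomputed under each alternative. Of 936 values, 875 kept direction and side of the threshold, 13 lost a call, 28 gained one and 20 changed sign, all of the last without a call.

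Cyclic loess gave 0.04 for Nr1d2 under LPS in MPI-2, -0.02 for Rxra in the difference of responses and -0.17 for Ppard in mock-treated cells. Quantile normalization gave 0.09 for Nr1d2 and 0.04 for Thra under LPS in MPI-2, 0.10 for Nr3c1 in the difference and -0.08 for Ppard in mock-treated cells. Leaving out 1 array moved Nr3c1 in the difference to 0.02 to 0.15 (0.15 omitting BMM mock array 1, 0.03 BMM mock 3, 0.12 BMM LPS 2, 0.02 MPI-2 mock 2, 0.04 MPI-2 LPS 1), from a lowest of -0.27. It moved Rxra in the difference to -0.05 (mock array 3 or LPS array 1 of MPI-2), from a highest of 0.20. Nr1d2 under LPS in MPI-2 ran from -0.07 to 0.04 (MPI-2 mock array 2), and Rxrb between LPS-treated cell types from -0.18 to 0.20 (BMM LPS array 2), with 0.07 omitting MPI-2 LPS array 1. Omitting mock array 1 and LPS array 3 of BMM at once, chosen after seeing the data, gave 0.05 for Ppard under LPS in BMM and, in the difference, -0.05 for Rxra, -0.12 for Rxrb and 0.13 for Nr3c1.

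Between LPS-treated cell types, 1 receptor was called lower under cyclic loess and under quantile normalization, against 0, and 0 to 1 with single arrays left out. A negative difference of responses was called for 2 with array weights and without those 2 BMM arrays, against 1, and for 1 to 2 with single arrays left out. Receptors higher under LPS in MPI-2 ranged from 1 to 2, and those with a called positive difference of responses from 1 to 3. Over all genes, 2859 were lower between LPS-treated cell types among genes above background, against 4312. Fitting only the 6 arrays compared gave 1321 higher in BMM (against 2053), and 1854 higher and 3172 lower in MPI-2 (against 1031 and 1910). Array weights gave 1940 and 3243 there. The cause was not tested. Coactivator genes lower with LPS in MPI-2 numbered 10 with array weights or 6 arrays, against 6. With a replicate block, LPS in BMM called 2035 genes higher and 3147 lower, and only Rara between LPS-treated cell types changed its call among the 9 (adjusted p = 0.0472). The share of called genes that were higher with LPS in BMM rose from 40.1% to 49.3% under cyclic loess. Signal near background limits Vdr in BMM, and 3 arrays a group limit every value.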
